A study of Mus musculus with 15 samples.

Results

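The H3K4me3 islands at the genes of odorant and pheromone receptors were described in the livers of 15 C57BL/6 mice, with 1 library per mouse. An island is a stretch of the genome in which SICER2, a caller for broad enrichment, found more reads than expected. Overlapping or adjacent islands of all 15 libraries were joined into merged regions, and a region was kept when it lay within 1 kb of a transcription start site (TSS) of a gene whose symbol starts with Olfr, Vmn1r, Vmn2r or Taar. This rule kept 592 of 74158 merged regions (0.798%), called receptor regions below: 427 at Olfr genes, 84 at Vmn1r genes, 81 at Vmn2r genes and 0 at Taar genes. It used gene names and the positions of genes and islands, and no island score or diet. A region exists only where at least 1 library had an island, so the set and its bounds depend on the island calls.

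All animals were females fed from an age of 3 months for 10 months, although 12 months is the age in the labels, and all were of the same strain, so that no genotype separated the groups. The 5 diets, with 3 mice each, were standard diet ad libitum (SD), caloric restriction (CR), high fat diet ad libitum (HF), and diets in which the corn came from yellow seeds free of anthocyanins (YD) or from purple seeds rich in them (RD), both ad libitum. YD and RD came from near-isogenic corn, so that RD against YD compares diets with and without anthocyanins. Chromatin came from formalin-fixed, paraffin-embedded liver sections by PAT-ChIP, which recovers chromatin from such blocks for immunoprecipitation. A liver section holds several cell types, and an island in a few cells and a weak island in many cells cannot be told apart here.

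Olfr genes encode the odorant receptors of olfactory sensory neurons, and each neuron transcribes a lone receptor allele while the rest of the family stays silent under heterochromatin. Vmn1r and Vmn2r genes encode the receptors of the vomeronasal organ for pheromones, and Taar genes encode receptors for trace amines. The families lie in tandem clusters with many pseudogenes, their promoters hold few CpG dinucleotides, and in hepatocytes they are taken to be silent. H3K4me3 marks the start of transcribed genes and is densest over CpG islands.

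The first printed sequences are the middle, up to 300 bases, of the bases that most libraries covered at the 3 receptor regions that recurred most without the TSS of another gene, meaning here a gene outside these families, within 1 kb. They are given on the strand of the receptor gene, from the GRCm38.p6 assembly. The Vmn2r125 stretch, chr4:156341551-156341850, lay under an island in all 15 libraries, 2350 bp before the TSS of this gene. Capitals mark the 14-base unit that was most frequent there, which occurred 9 times in the stretch, 68 times in the whole receptor region and 178 times on chromosomes 1 to 19 and X.
Vmn2r125: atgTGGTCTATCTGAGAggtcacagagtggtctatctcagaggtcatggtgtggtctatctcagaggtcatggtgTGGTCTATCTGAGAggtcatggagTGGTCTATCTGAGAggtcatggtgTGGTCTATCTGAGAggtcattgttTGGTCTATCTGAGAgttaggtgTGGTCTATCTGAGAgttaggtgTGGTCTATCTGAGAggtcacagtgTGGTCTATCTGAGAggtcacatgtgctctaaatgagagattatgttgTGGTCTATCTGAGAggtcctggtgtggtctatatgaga
In the next pair capitals mark CpG dinucleotides. The Vmn2r-ps3 stretch, chr3:64056801-64057000, lay under an island in 13 libraries, 1191 bp before the TSS, and the Olfr57 stretch, chr10:79043651-79043950, in 11 libraries, beyond the 3' end of the gene. Both are intergenic in GENCODE.
Vmn2r-ps3: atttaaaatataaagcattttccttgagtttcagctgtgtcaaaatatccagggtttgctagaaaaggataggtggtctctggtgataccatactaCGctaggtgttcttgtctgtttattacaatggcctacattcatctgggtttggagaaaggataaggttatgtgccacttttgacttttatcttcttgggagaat
Olfr57: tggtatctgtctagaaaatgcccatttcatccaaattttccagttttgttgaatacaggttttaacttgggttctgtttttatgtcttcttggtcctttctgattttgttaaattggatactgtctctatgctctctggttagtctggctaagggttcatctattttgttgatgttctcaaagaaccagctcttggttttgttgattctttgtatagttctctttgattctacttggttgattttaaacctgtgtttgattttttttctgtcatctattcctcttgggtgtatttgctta
The soft-masked repeats of the assembly made up 82.3% of the Vmn2r125 stretch, 96.7% of the Olfr57 stretch and 11% of the Vmn2r-ps3 stretch.

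The last pair are the 250 bases before the start of a receptor gene in RefSeq promoters, again with CpG in capitals, to set a promoter that islands covered beside one that none did. That of Olfr212, chr6:116506266-116506515, had 12 CpG and lay under an island in 7 libraries. That of Olfr544, a receptor studied in liver and fat cells, chr7:102488308-102488557, had 0 CpG and lay under no island. Receptor promoters with and without an island both held a median of 1 CpG, so this picked pair does not stand for those sets.
Olfr212: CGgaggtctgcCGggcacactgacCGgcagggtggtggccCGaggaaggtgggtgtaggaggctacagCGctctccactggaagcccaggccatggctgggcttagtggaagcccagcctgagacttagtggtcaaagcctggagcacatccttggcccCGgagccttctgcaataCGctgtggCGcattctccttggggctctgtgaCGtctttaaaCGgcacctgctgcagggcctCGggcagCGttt
Olfr544: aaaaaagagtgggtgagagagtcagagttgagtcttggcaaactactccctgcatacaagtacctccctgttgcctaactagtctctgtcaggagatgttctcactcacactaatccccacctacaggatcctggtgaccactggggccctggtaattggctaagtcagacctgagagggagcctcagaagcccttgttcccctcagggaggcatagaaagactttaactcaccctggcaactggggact

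Most receptor genes had no island. Of 1986 annotated receptor genes, 512 (25.8%) had an island within 1 kb of a TSS in at least 1 library, against 34.9% of all 53843 genes and 62.4% of the 20274 protein-coding genes outside the families. In a single library the share was 3.17% ± 3.32 (SD, n = 15) and ranged from 0.403% in HF mouse 3 to 12.4% in RD mouse 2. An island in at least 2 libraries was found at 204 genes (10.3%) and in at least 8 at 10 genes. The shares of all genes at these cuts are not given here, so these counts cannot be read as high or low. Where 2 members shared a merged region, as Olfr1107 and Olfr1108-ps1 did, they were counted as 1 region.

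Receptor regions were mostly found in a single library. Of the 592, 355 (59.97%) had an island in 1 library only and 237 (40.03%) in at least 2, against 45.6% of all merged regions in at least 2. An island in at least 8 libraries was found in 26 receptor regions (4.39%, against 12.9% of all) and in all 15 libraries in 5 (0.845%, against 2.68%). The 12100 promoter regions of protein-coding genes outside the families had a median of 10 libraries, with 9.65% in 1 library only and 14.2% in all 15. The 58545 regions with no TSS within 1 kb had a median of 1 library, with 64.1% in 1 library only and 2.43% in at least 8. The receptor regions were distributed much like regions away from TSSs.

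**Figure D1:**
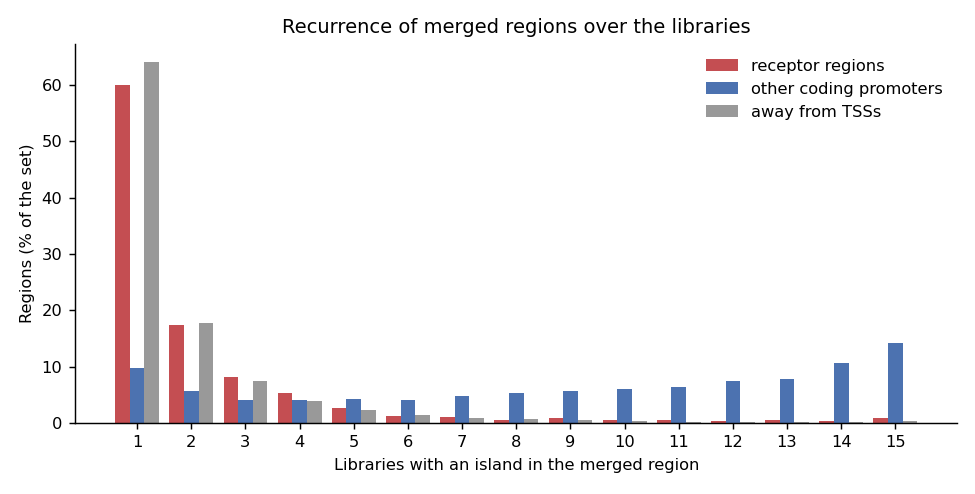
Share of merged regions (y axis, percent of the set) by the number of libraries with an island (x axis, 1 to 15), for the 592 receptor regions, 12100 promoter regions of other protein-coding genes and 58545 regions away from TSSs. Receptor regions and regions away from TSSs peak at 1 library (59.97% and 64.1%), whereas the other promoters rise to 14.2% at 15.

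A pair of libraries held much of this. The longest island lists, those of CR mouse 3 (33752 islands) and RD mouse 2 (32131), held 93 and 117 of the 355 receptor regions found in 1 library only, together 59.2%, against 42.2% of the single-library regions of the whole series. Without both libraries, merging gave 340 receptor regions in place of 592, 70.0% of them in 1 library only, and 15.7% of receptor genes with an island. Over the 15 libraries the number of receptor regions rose with the length of the list (Pearson's r = 0.918, permutation p = 7.0e-05, adjusted p = 0.00014; Spearman's rho = 0.817, permutation p = 0.00043), and its relation with the number of reads behind the list did not pass the test (r = 0.225, permutation p = 0.409; rho = 0.0214, permutation p = 0.941). The relation with list length held without CR mouse 3 and RD mouse 2 (r = 0.762, permutation p = 0.0018) and within the 10 libraries whose names hold ChIP and not PATChIP (r = 0.939, permutation p = 0.00022). The reads, recovered from the scores, ranged from 5589269 in CR mouse 1 to 15449854 in YD mouse 1, and the lists from 7825 islands in YD mouse 1 to 33752.

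Around their TSSs the receptor genes showed no rise of H3K4me3. With 1 TSS per gene, 1.48% ± 1.74 (SD, n = 15 libraries) of the 1986 receptor genes had an island over the TSS itself, and 1.64% at distances of 8 to 10 kb. The highest share within 10 kb, 1.85%, was at -9800 bp, away from the TSS. For the 20274 other protein-coding genes the share was 27.8% ± 11.2 at the TSS and 33.1% at its highest, 400 bp after it, which is 17.2 times their distant level of 1.92%. The TSS itself lay inside 370 of the 592 receptor regions (62.5%), against 11406 of 12100 (94.3%) of the other promoter regions.

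**Figure D2:**
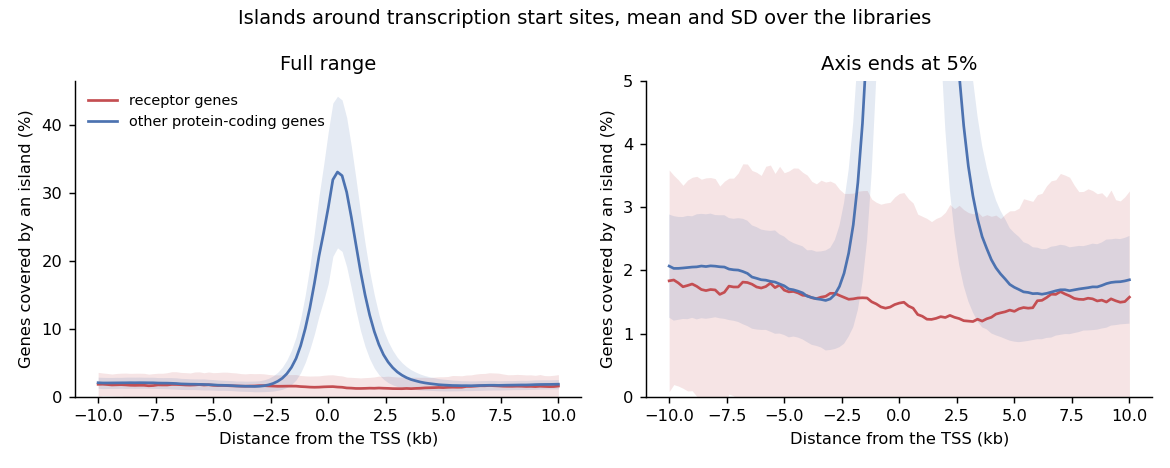
Share of genes under an island (y axis, percent, mean over 15 libraries with the SD shaded) by distance from the TSS (x axis, kb), for 1986 receptor genes and 20274 other protein-coding genes, with the right panel cut at 5%. The receptor line runs between 1.19% and 1.85%, while the other genes reach 33.1% just after the TSS.

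Within a library, the bases within 1 kb of receptor TSSs were covered by islands about as often as intergenic bases. The covered share was 1.23% ± 1.57 against 1.10% ± 1.19 (SD, n = 15), a difference of 0.136 points that was positive in 8 of 15 libraries (exact sign-flip permutation p = 0.307, adjusted p = 0.350). The intergenic bases inside the receptor clusters, by contrast, were covered to 2.30% ± 1.92, more than the TSS windows in 15 of 15 libraries (difference -1.07 points ± 0.491, exact permutation p = 6.1e-05, the smallest possible, adjusted p = 0.000244). Of these intergenic bases 60.1% were soft-masked repeats and 65.0% began a 50-mer that is unique in the genome, against 20.9% and 87.5% in the TSS windows. The part of repeats and mappability in this difference was not tested.

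Islands in receptor regions scored below other islands of the same list. Scores are comparable only within a list, so each was given its percentile there. The median percentile of receptor islands ranged from 25.1 to 54.5 over the libraries (mean 40.1 ± 9.14, SD, n = 15), and was 9.93 ± 9.19 points below that of all other islands, lower in 12 of 15 libraries (exact sign-flip permutation p = 0.00153, adjusted p = 0.00203). With only the upper part of each list by score, from its median up, the difference was 4.46 points the other way (adjusted exact permutation p = 0.129). Against islands away from every TSS, whose median percentile was 31.9 ± 7.58, receptor islands stood 8.19 ± 6.50 points higher in 14 of 15 libraries (adjusted exact permutation p = 0.000366). That difference rested on the 35 receptor regions that also lie within 1 kb of the TSS of a gene outside the families: without them it was -2.29 points (adjusted exact permutation p = 0.326). The same held for width. The median receptor island was 2120 bp ± 585 wide and exceeded islands away from TSSs by 187 bp ± 160 (wider in 11 libraries and equal in 4, adjusted exact permutation p = 0.00156), but by 60 bp without the 35 regions (adjusted exact permutation p = 0.350).

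The 3 families with islands differed in how often their genes carried one. Per library, 2.74% ± 3.51 of the 1407 Olfr genes, 3.00% ± 2.75 of the 327 Vmn1r genes and 6.19% ± 3.51 of the 236 Vmn2r genes had an island (SD, n = 15). Vmn2r genes exceeded Olfr genes by 3.44 points ± 1.21 and did so in 15 of 15 libraries (exact sign-flip permutation p = 6.1e-05, the smallest possible, adjusted p = 0.000244), and still by 2.23 points among genes with no TSS of a gene outside the families within 10 kb (adjusted p = 0.000244). This test was over libraries, in which the same genes can recur, so it does not compare the families across genes. An island in at least 8 libraries was found at 7 Vmn2r genes and 1 Olfr gene. An island in at least 2 was found at 19.1% and 9.17% of their genes, and in at least 1 at 30.1% and 26.2%. The difference across genes was not tested. Vmn1r and Olfr genes differed per library by 0.254 points ± 1.12 (higher in 11 of 15 libraries, adjusted exact permutation p = 0.399), and by 0.614 points without the 2 longest lists (adjusted p = 0.00195). The 16 Taar genes, in 1 cluster on chromosome 10, had no island in any library, as did 1474 receptor genes in all.

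Pseudogenes carried islands more often than coding receptor genes, by 1.10 points ± 0.780 per library (3.99% against 2.89%, higher in 14 of 15 libraries, adjusted exact permutation p = 0.000326). The families did not share this direction. Among Vmn2r genes the mean share was 9.38% for 113 pseudogenes and 3.28% for 122 coding genes, among Vmn1r genes 3.11% for 118 and 2.93% for 209, and among Olfr genes 2.16% for 272 and 2.88% for 1135. The difference within each family was not tested. The test of pseudogenes against coding genes was again over libraries and not across genes. An island in at least 2 libraries was found at 11.5% of pseudogenes and 9.86% of coding genes, and in at least 1 at 25% and 26.1%. Of the 10 genes with an island at a TSS in at least 8 libraries, 7 were Vmn2r pseudogenes.

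The recurrent receptor regions fell into those with and those without the promoter of a gene outside the families. Of the 35 receptor regions with the TSS of a gene outside the families within 1 kb, 10 had an island in at least 8 libraries and 4 in all 15, with a median of 3 libraries. Of the 557 without, 16 had an island in at least 8 and 1 in all 15, with a median of 1. The 4 shared ones were all at Vmn2r pseudogenes. Vmn2r-ps18 (chr4:147121401-147129000), next to Gm13162, scored highest, with a mean percentile of 97.2 and its best island between the percentiles 96.0 and 99.7 in every list. Vmn2r-ps19 (chr4:147441201-147500800) was the widest receptor region, 59600 bp, and took in Zfp982 and other genes, and Vmn2r-ps20 (chr4:147513801-147547800) spanned 34000 bp with Gm16503. Vmn2r-ps132 (chr17:23163601-23187200) took in Zfp40. Zfp982 and Zfp40 encode zinc finger proteins, a family that also lies in repeated clusters. Vmn1r4 (13 libraries) is a further case: its region holds the CpG-rich start of Nt5c3, which encodes a pyrimidine nucleotidase.

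Vmn2r125 (chr4:156340001-156345200) was the receptor region found in every library with no gene outside the families near: the nearest such TSS, of Samd11, lay 84344 bp away. GENCODE lists Vmn2r125 as an unprocessed pseudogene, and the pseudogene Vmn2r-ps159 is in the same cluster of 2 genes (chr4:156331103-156355905). The best island of the Vmn2r125 region stood at the percentiles 96.8, 97.7 and 57.3 in SD mice 1 to 3. It stood at 95.4, 85.9 and 92.2 in CR, and 73.7, 97.8 and 67.8 in HF. In YD it stood at 93.3, 95.9 and 98.3, and in RD at 95.4, 98.0 and 96.3. SD mouse 3, HF mouse 1 and HF mouse 3 were the lowest, and the diets overlapped. The bases covered in all 15 libraries, chr4:156341001-156342400, took in the stretch printed above and not the TSS. They held 28 copies of the unit capitalised there, of 68 in the whole receptor region.

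The next regions without the TSS of a gene outside the families were Vmn2r-ps3 (14 libraries, absent in HF mouse 3), Olfr57 (13, absent in SD mouse 3 and HF mouse 3), Olfr212 (13, absent in SD mouse 3 and YD mouse 1), Olfr3 and Olfr848-ps1 (12 each), Vmn1r11 and Olfr1564 (11 each), and Olfr1355 and Vmn1r-ps25 (10 each). These counts are of libraries with an island anywhere in the merged region. The same 200 bp window was covered by at most 7 libraries at Olfr848-ps1, and 8 at Olfr1355 and Vmn1r-ps25. It was covered by at most 9 at Olfr3, Olfr212 and Vmn1r11, 10 at Olfr1564, 11 at Olfr57 and 13 at Vmn2r-ps3. The most covered window lay from 1216 bp (Vmn1r-ps25) to 8978 bp (Olfr57) away from the TSS of the receptor gene. The mean percentile of the islands ran from 34.8 at Olfr848-ps1 to 72.7 at Vmn2r-ps3. At Olfr57 the best island stood at the percentiles 42.1, 49.3 and 60.4 in CR mouse 2, HF mouse 1 and SD mouse 2, and between 91.3 and 98.97 in the other 10 lists. At Olfr212 it ranged from 2.10 in HF mouse 3 to 98.1 in RD mouse 2.

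**Figure D3:**
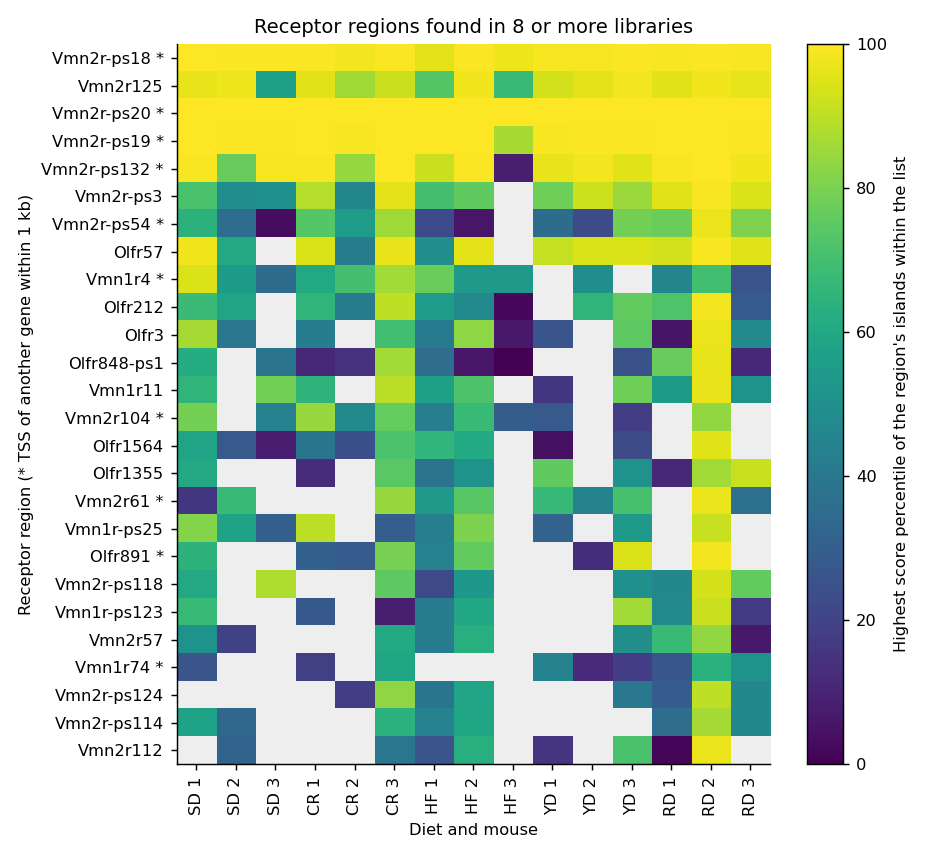
The 26 receptor regions with an island in 8 or more libraries (rows, most recurrent on top) by diet and mouse (columns), coloured by the highest score percentile of the region's islands within the list, with grey where there is none and an asterisk where a gene outside the families has a TSS within 1 kb. The top rows are filled in all 15 columns, and HF 3, YD 1 and YD 2 hold many of the grey cells below.

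The recurrent regions were rich in repeats. Receptor regions in at least 8 libraries had a median of 41.6% soft-masked bases and 92.6% unique 50-mers, against 20.9% and 99% for those in 1 library. Regions away from TSSs showed the same order, with 38.4% and 94.4% in at least 8 libraries. A tandem repeat, taken as a 200-base stretch with at least 75% identity to the sequence 5 to 100 bases further on, was present in 8 of the 26 recurrent receptor regions (30.8%), in 5 of the 211 found in 2 to 7 libraries (2.37%) and in 5 of the 355 found in 1 (1.41%). Among regions away from TSSs it was present in 3.50% of all and 18.96% of those in at least 8 libraries. Wider regions hold more such stretches, and recurrent regions were wider: the median receptor region was 1800 bp in 1 library and 4400 bp in at least 2. The 8 were Olfr848-ps1 (100% identity at a period of 15 bases), Vmn1r-ps123 (91.5%, 8 bases), Vmn2r-ps20 (91.5%, 84 bases), Vmn2r125 (88.0%, 24 bases), Vmn2r-ps132 (86.0%, 84 bases), and Vmn2r-ps19, Vmn2r-ps3 and Vmn2r-ps54 (82.5% each, at 8, 8 and 5 bases). Among the 10 less recurrent regions with a repeat, the highest identity was 91.5%, at Olfr1217 in 1 library. A period of 84 bases is that of the repeated C2H2 zinc finger. The part of repeats in the recurrence was not tested, and values of an input library were not used here.

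Receptor regions as a whole were poor in CpG. Their median GC content was 35.8% and their ratio of observed to expected CpG 0.111, close to 37.5% and 0.122 away from TSSs and well below 50.1% and 0.495 in the other coding promoters. RefSeq gave 1283 promoters of 300 bases for 1278 receptor genes, with 1245 of the 1982 receptor symbols of GENCODE among them, and these promoters held a median of 1 CpG, against 7 in all 32851 promoters. The letters TATAAA occurred on either strand in 39.7% of receptor promoters and 13.6% of all, and TAATTA, the core that LHX2 and EMX2 read in odorant receptor promoters, in 16.5% and 5.29%. Receptor promoters of GENCODE genes with an island held TATAAA in 48.7% and TAATTA in 23.1%, and those without in 36.7% and 14.8%, with a median GC content of 33.7% and 36.7%. Their CpG content was alike, with a median of 1 CpG in either set and no CpG in 32.6% and 31.4%. The words TATAAA and TAATTA hold only A and T, and the part of base composition in their shares was not tested.

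The regions were unevenly spread over the gene clusters. With gaps of up to 1 Mb, the receptor genes formed 93 clusters, of which 35 with at least 10 genes held 1842 of the 1986 genes, and 31 of these 35 had a receptor region. The share of genes with an island in at least 1 library ran from 0 to 78.6%, with a median of 15.6%. The largest cluster, 287 Olfr genes on chromosome 2 (85330779-90403897), had islands at 109 (38.0%) and held 130 receptor regions, none of them in more than 6 libraries. The second largest, 156 Olfr genes on chromosome 7 (102476579-105369355) around the beta-globin genes, which holds the class I odorant receptors, had islands at 27 (17.3%). The highest share, 11 of 14, was in the Vmn2r cluster on chromosome 7 (41395945-42933822), followed by 33 of 46 Olfr genes on chromosome 2 (111230360-112167997, 71.7%), 31 of 49 on chromosome 9 (18751507-20336094, 63.3%) and 32 of 60 Vmn1r and Vmn2r genes on chromosome 17 (17703747-21323766, 53.3%).

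These shares were carried by few libraries. At the chromosome 2 cluster of 46 genes the mean share per library was 6.81% ± 12.4 (SD, n = 15), from 0 to 41.3%, and at the chromosome 7 Vmn2r cluster 15.2% ± 12.6, from 0 to 42.9%. No library marked most genes of a cluster of at least 10 genes. 4 clusters of at least 10 genes had no island within 1 kb of a receptor TSS in any library: the 16 Taar genes, 15 Olfr genes on chromosome 4 (118658952-118938612), 13 Vmn2r genes on chromosome 6 (123308333-124231856) and 10 Olfr genes on chromosome 15 (98186013-98502637). Islands elsewhere in these clusters were not counted. Receptor genes without an island had less unique sequence at their TSS windows than those with one, at a median of 78.5% against 96.5% unique 50-mers for Vmn2r, 82.3% against 98.5% for Vmn1r and 97.5% against 99% for Olfr. Reads of a MAPQ below 1 were removed by the authors, so that a silent and an unmappable gene cannot be told apart there.

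**Figure D4:**
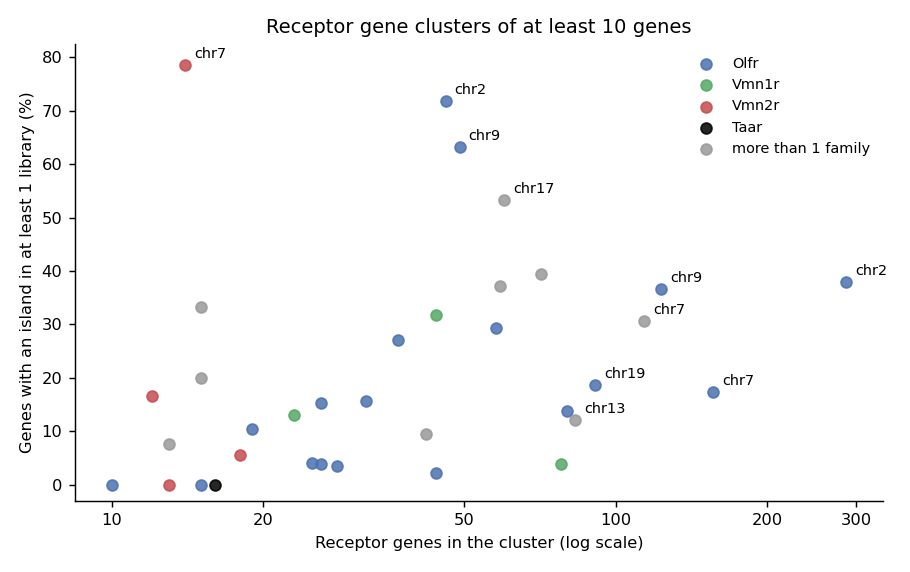
Share of genes with an island in at least 1 library (y axis, percent) by the number of receptor genes (x axis, log scale) in the 35 clusters of at least 10 genes, coloured by family, with the 6 largest and the 4 highest labelled by chromosome. The 287-gene chromosome 2 cluster lies at 38.0%, and the 14-gene Vmn2r cluster on chromosome 7 highest, at 78.6%.

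The diets were compared first by the number of receptor regions with an island. It was 135, 40 and 37 in SD mice 1 to 3, 33, 30 and 67 in YD, 73, 286 and 66 in RD, 63, 40 and 243 in CR, and 76, 89 and 13 in HF. A single mouse stood far above the other 2 in SD, CR and RD, and every diet overlapped every other. The means were 142 ± 125 in RD, 115 ± 111 in CR, 70.7 ± 55.7 in SD, 59.3 ± 40.6 in HF and 43.3 ± 20.6 in YD (SD, n = 3). None of the 10 comparisons passed the exact two-sided permutation test. The lowest p was that of RD against the other 12 mice (69.5 more regions, exact p = 0.112, adjusted p = 0.835), and it fell to -4.00 without RD mouse 2. RD exceeded YD by 98.3 regions (exact p = 0.2, where 3 mice against 3 allow no p below 0.1).

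The share of a list's islands at receptor regions divides by the length of the list, but it can still vary with that length. The 2 longest lists, of RD mouse 2 and CR mouse 3, held 0.974% and 0.901%, while YD mouse 3, with 10906 islands, held 0.926%. The relation of this share with list length was not tested. The mean was 0.781% ± 0.170 in RD, 0.631% ± 0.256 in YD, 0.614% ± 0.260 in CR, 0.503% ± 0.169 in SD and 0.401% ± 0.181 in HF (SD, n = 3). The RD mice held 0.657%, 0.974% and 0.711%, the YD mice 0.498%, 0.468% and 0.926%, and the SD mice 0.692%, 0.368% and 0.448%. RD exceeded the other 4 diets by 0.244 points (exact permutation p = 0.0967, adjusted p = 0.571) and SD by 0.278 points (exact permutation p = 0.2, adjusted p = 0.667), and HF lay 0.231 points below the other diets (exact permutation p = 0.114, adjusted p = 0.571). None passed the test, and the groups overlapped in all 10 comparisons. The 5 libraries named PATChIP were 2 of CR, 2 of HF and 1 of RD, so that the form of the name is partly confounded with diet. Among the 10 libraries named ChIP, RD exceeded the other diets by 0.244 points with 2 mice against 8 (exact permutation p = 0.178), and SD by 0.340 points with 2 mice against 3 (exact permutation p = 0.2). Among the 5 PATChIP libraries the single RD mouse lay 0.243 points above the mean of the other 4, with no test.

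**Figure D5:**
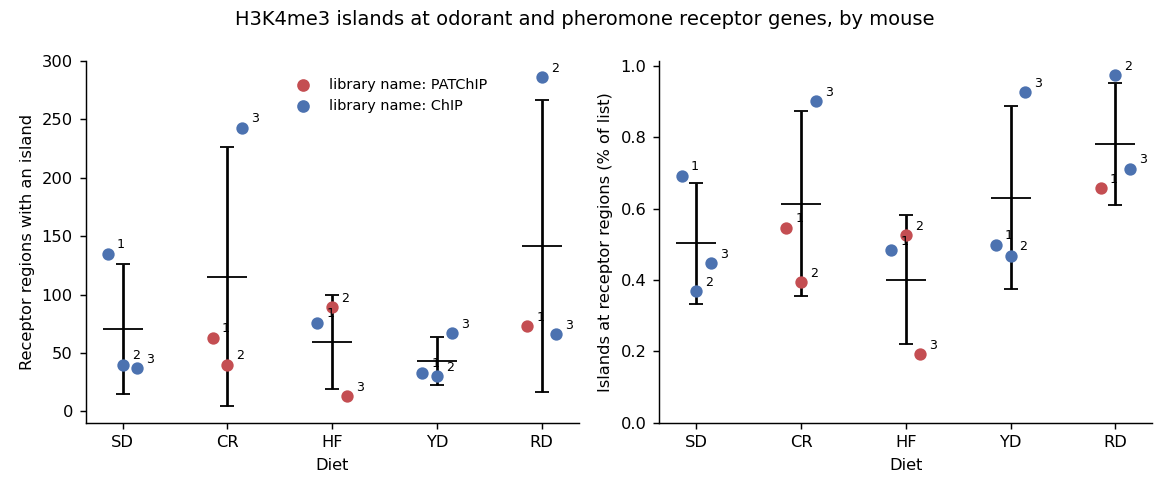
Receptor regions with an island (left, number) and islands at receptor regions (right, percent of the list) in the 3 mice of each diet, numbered as in the labels and coloured by the form of the library name, with the mean and SD as a bar and whiskers. CR 3 (243) and RD 2 (286) stand above the rest on the left, and RD has the highest mean on the right, 0.781%.

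Single regions were then compared between diets. A region was counted as gained when at least 2 of 3 mice of the first diet and no mouse of the second had an island, and lost for the reverse. In CR against SD, 15 receptor regions were gained (2.53%, against 2.65% of all 74158 merged regions) and 6 lost (1.01%, against 0.661%). In HF against SD 10 were gained (1.69%, against 2.92%) and 11 lost (1.86%, against 0.779%), and in YD against SD 2 were gained (0.338%, against 0.337%) and 14 lost (2.36%, against 4.00%). In RD against SD 28 were gained (4.73%, against 3.04%) and 5 lost (0.845%, against 1.65%), and in RD against YD 44 were gained (7.43%, against 4.98%) and 2 lost (0.338%, against 0.217%). The 4 comparisons with SD share its mice. These counts have no test.

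Few receptor regions separated diets in all 3 mice. Against SD, RD gained Olfr1107 with Olfr1108-ps1 (chr2:87075201-87083400; all 3 RD mice and CR in 1), Vmn1r46 (chr6:89975801-89981200; the 3 RD mice alone) and Vmn2r-ps124 (chr17:19932201-19938800; also in 2 CR, 2 HF and 1 YD mice), 3 of 592 (0.507%, against 0.254% of all). A merged region joins islands that need not all overlap. At most 2 libraries covered the same 200 bp window at Vmn1r46, and also at Olfr1107 with Olfr1108-ps1. At these regions the 3 RD mice had no window in common. At Vmn2r-ps124 at most 5 libraries covered the same window. HF gained Olfr218 (3 HF, 2 CR, 1 YD and 1 RD mice) and Olfr1388 (the 3 HF mice alone), 2 of 592 (0.338%, against 0.725%). The 3 HF mice had a window in common at Olfr1388, and 6 libraries had one at Olfr218. HF and YD each lost Vmn1r-ps64 and a 5000 bp region at Vmn2r-ps54, present in the 3 SD mice (0.338%, against 0.0432% and 1.08% of all regions). Both lie within 1 kb of the TSS of a gene outside the families, Gm45364 and Gm9252. At most 4 and 5 libraries, respectively, covered the same window there. Another receptor region at Vmn2r-ps54, chr7:41667801-41699600, had an island in 2 HF and 3 YD mice, so the gene was not without islands in these diets. CR neither gained nor lost a receptor region under this rule (0.247% and 0.0297% of all), RD lost none (0.329% of all) and YD gained none (0.00809% of all). Against YD, RD gained Olfr1107 with Olfr1108-ps1, Vmn1r46 and Vmn2r-ps114, 3 of 592 (0.507%, against 0.667% of all), and lost none (0.00944% of all). Within a diet, 23 receptor regions had an island in all 3 RD mice (3.89%, against 6.84% of all), 14 in CR (2.36%, against 9.94%), 13 in HF (2.20%, against 13.3%), 12 in SD (2.03%, against 8.41%) and 10 in YD (1.69%, against 3.69%).

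The genes that olfactory neurons use with the receptors were mostly without an island too. Of 25 listed genes of olfactory signalling and receptor choice, 19 had none in any library, among them Omp, which marks mature olfactory neurons, Gnal, Adcy3 and Cnga2 of the odorant transduction cascade, Rtp1 and Rtp2, which carry receptors to the membrane, and the EBF factors Ebf1 to Ebf4. The other 6 are also used outside the nose: Ric8b, Atf5 and Gnai2 had an island in 15 libraries, Kdm1a, the demethylase LSD1, in 10, Ldb1 in 9 and Lhx2, a regulator of receptor choice that liver stellate cells also express, in 2 HF mice. The 5 markers of olfactory neurons and the vomeronasal channel gene Trpc2 were at 0 in every library. All 10 hepatocyte markers had an island, 5 to 10 of them in each library, with Hnf4a, Ttr, Trf and Cyp2e1 in 15. Markers of other liver cells were found in few libraries. Of 3 Kupffer cell markers, Clec4f had an island in 2 libraries, Cd5l in 1 and Vsig4 in 0, and of the leukocyte markers Ptprc had one in 5 and Cd3e in 0. Of 3 endothelial markers, Pecam1 had an island in 4 libraries, Stab2 in 3 and Lyve1 in 2. The islands at Clec4f, Cd5l and Lyve1 were in HF mice, as were those at Lhx2. The other markers were not confined to HF. Stab2 had an island in 1 SD, 1 CR and 1 HF mouse, and Pecam1 in 1 SD, 2 HF and 1 RD mice. Ptprc had one in 1 SD, 1 CR, 1 HF and 2 RD mice. The part of such cells in the receptor islands of HF or of another diet was not tested. 6 odorant receptor genes studied outside the nose, Olfr16, Olfr78, Olfr544, Olfr558, Olfr734 and Olfr1393, had no island in any library. Of other chemoreceptor families, 6 of 40 Tas2r bitter taste receptor genes, 1 of 3 Tas1r, 2 of 8 Fpr and 3 of 19 Ms4a genes had an island in at least 1 library. By the same count 34.9% of all genes, 62.4% of protein-coding genes outside the receptor families and 25.8% of receptor genes had one. These lists are short, and their counts have no test.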

How the data were processed

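The authors deposited 1 SICER2 island list per library, without pooling, with the chromosome, bounds and score of each island. Per the submitters' processing notes and the methods, 50 bp single reads were aligned to mm10 with BWA, and filtered with SAMtools, which left mapped, deduplicated reads on the autosomes and X with a MAPQ of at least 1. Islands were called with 200 bp for fragments and windows, gaps of 400 bp and an FDR threshold of 0.05. The deposited score adds up, over the windows of an island, the negative natural logs of the Poisson probabilities of their read counts. It was compared only as a percentile within its list, and it also served to recover the reads behind a list. Aligner versions are not given in the sources used here.

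Groups and mouse numbers came from the sample labels. Receptor genes and TSSs were those of GENCODE M21, whose coordinates match the GRCm38.p6 assembly. Calculations used Python 3.11.15, numpy 2.4.6, pandas 2.3.3, scipy 1.17.1, numba 0.67.0 and matplotlib 3.10.9. Differences between diets were tested by exact two-sided permutation of the mean difference, with p as the share of arrangements with an absolute difference at least as large, and differences within libraries by exact sign-flip permutation over 15 libraries. Benjamini-Hochberg adjustment was over the 10 diet comparisons of a measure and over the 8 within-library comparisons, with a threshold of 0.05. Correlations used 100000 permutations with a seed of 7. Reads behind a list were recovered from the scores of islands of a single window, assuming an effective genome fraction of 0.74. The reads in single islands were not used, so errors are those between mice, which are separate animals. No lists were duplicates: at most 2.79% of islands of the shorter list had the same bounds in another. Same-numbered mice of different diets did not deviate together (mean correlation 0.0017 over 30 pairs), so the numbers were not used as pairs in the main tests. This check cannot show whether they stand for a litter or a batch. A 50-mer counted as unique when it occurred in a single place on either strand.

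The named regions were, by rule, the 10 most recurrent without and the 5 with the TSS of a gene outside the families, the 3 widest, the 3 of highest mean percentile and up to 3 gained and 3 lost per comparison, and only some of the last are described. Vmn1r4 and the printed sequences were chosen after their values were seen. The receptor families, gene lists and rules were chosen with earlier results of these data known. The functions were tested on simulated data. Signal profiles and expression were not analysed here, and 1 listed marker gene is not reported here.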

Additional observations from a re-analysis of the deposited data

How the results depend on the processing

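The lists hold no reads per island, so weak H3K4me3 at a receptor gene below the calling threshold was not detectable, and 3 mice per diet limit every diet comparison. Under all alternatives, none of the 20 diet comparisons passed the threshold after adjustment. With the 7825 highest-scoring islands of every list, RD exceeded the other diets by 23.9 receptor regions (exact permutation p = 0.0132, adjusted p = 0.132) and by 0.327 points (exact permutation p = 0.011, adjusted p = 0.110). The cause of the changes below was not tested.

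Under the same setting the difference in receptor regions was 10 for YD against SD, -6.92 for CR and 5.17 for YD against the other diets, that in the share was -0.0884 points for CR against the others, and that in median percentile against all other islands 2.21 points, while Vmn1r exceeded Olfr by 0.340 points and passed the test. With islands from the median score up, CR against the others was -0.0370 points and the percentile difference 4.46 points. With the TSS inside the region they were -0.000947 and -5.27 points, the latter no longer past the threshold. With coding receptor genes only, YD against the others was -0.00919 points. Without regions near the TSS of a gene outside the families, it was -0.0394 points, the percentile difference against islands away from TSSs was -2.29 points, and the width difference 60 bp. With regions in at least 2 libraries, CR against the others was -0.0106 points. Among genes with no TSS of a gene outside the families within 10 kb, an alternative chosen after seeing the data, Vmn1r minus Olfr was -0.0649 points, while with 1 TSS per gene, also chosen then, no call changed.

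Without both of the longest lists, also chosen after seeing the data, the regions numbered 340, with 70.0% in 1 library only, and 15.7% of receptor genes had an island. The difference in receptor regions was then -16.0 for CR and -3 for RD against SD, and 14.6 for SD and -5.64 for CR against the others. In the share it was -0.0239 for CR against SD and -0.0478 points for CR against the others, the coverage of TSS windows minus intergenic bases was -0.00933 points, and Vmn1r exceeded Olfr by 0.614 points.

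The replicate block, with labels permuted only among mice of the same number, changed no call: its lowest p was 0.136, for RD against the others in receptor regions (69.5 regions). A log2 scale, a width of at least 600 bp and TSSs within 3 kb changed no call or direction in the diet comparisons.

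Leaving out 1 library in turn, receptor regions differed by -21.5 to 81.3 for CR, -28.0 to 20.8 for HF, -2.33 to 109 for RD and -43.7 to 4.83 for YD against SD, and by -28.6 to 73.5 for CR and -4.00 to 107 for RD against the others. The share differed by -0.0565 to 0.218 points for CR, -0.170 to 0.00750 for HF and -0.0172 to 0.205 for YD against SD, and by -0.123 to 0.144 for CR and -0.0891 to 0.134 for YD against the others. The 456 to 592 regions had 59.97% to 67.1% in 1 library only, 20.2% to 25.8% of receptor genes had an island, and the correlation with recovered reads ran from -0.154 to 0.444. The 8 within-library comparisons kept their direction and call in all 120 of these results.

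With all 3 mice required, the regions gained and lost were 0 and 0 in CR, 2 and 2 in HF, 3 and 0 in RD and 0 and 2 in YD against SD, and 3 and 0 in RD against YD. With the 7825 highest-scoring islands they were 1 and 0 in CR, 0 and 1 in HF, 13 and 1 in RD against SD (9.49% of the 137 receptor regions left, against 2.92% of all, for the gains), 0 lost in YD, and 11 and 0 in RD against YD. For the other counts of this setting the share of all regions is not given here, so they cannot be read against it. None of these counts has a test.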
